A study of Homo sapiens with 10 samples.

Results

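The 40 genes described here are interferon-stimulated genes, that is, genes known to be switched on in cells exposed to interferon, and they were followed across 4 lines made from the human prostate cancer cell line PC3. They are 40 of the 23170 gene entries in the RNA-seq tables. The list was chosen on the basis of measured ratios between these same lines, above all the ratio of the OVOL2 line to the OVOL1 line, so its counts and medians are descriptions and no test was made of them. PC3-Epi (2 samples) is a stable epithelial PC3 subpopulation that carries luciferase. PC3-EMT14 (3 samples) is a mesenchymal population isolated from PC3-Epi cells grown together with macrophages, and it was the parent of the other two lines. The lines PC3-EMT14-OVOL1, with 3 samples, and PC3-EMT14-OVOL2, with 2, were derived from it and made to overexpress OVOL1 or OVOL2, a pair of zinc finger transcription factors of epithelial cells, from lentiviral constructs that differed between the genes.

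Each line has 1 pooled level per gene in FPKM, fragments per kilobase of transcript scaled to the number of mapped fragments. The spread between the 10 samples and the depth behind a level are therefore unknown, and no SD is given. The authors' own test statistics were not used, and no test was made here. The control of both overexpression lines is labelled PC3-EMT14 and no empty vector is named, so an effect of the virus or its selection cannot be told apart from an effect of the transcription factor. PC3-EMT14 is 1 isolated population, and more RNA per cell cannot be told apart from more cells that make it in these bulk samples. Levels are given throughout in the order PC3-EMT14 first, then the OVOL1 line, then the OVOL2 line, and PC3-Epi last.

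The introduced genes were high in the lines named for them. OVOL1 stood at 0.0239, 11.2, 0.0700 and 4.25 FPKM, and OVOL2 at 0.376, 0.559, 831 and 9.91 FPKM. The OVOL2 transcript was thus far more abundant in its line than OVOL1 was in its own, and any comparison of the pair is also a comparison of these doses. E-cadherin (CDH1), the adhesion protein of epithelial cells, stood at 0.985, 16.1, 39.2 and 50.6 FPKM, and the mesenchymal filament protein vimentin (VIM) at 266, 182, 76.9 and 42.5 FPKM. Between the OVOL lines, 1 of 6 epithelial markers was at least 2-fold higher in the OVOL2 line, where 1.6% of the 12106 genes with a mean of at least 1 FPKM were, and 3 of 5 mesenchymal markers were at least 2-fold lower, where 1.15% of those genes were. These were CDH1 on the epithelial side, and on the mesenchymal side VIM, the transcription factor ZEB1 at 7.46, 4.23, 1.77 and 0.130 FPKM, and the matrix protein SPARC at 4.24, 4.90, 1.68 and 2.17 FPKM. The markers did not all place the OVOL2 line nearer to PC3-Epi: ESRP1, an epithelial splicing regulator, stood at 0.408, 15.2, 11.7 and 84.6 FPKM, and fibronectin (FN1) at 36.2, 18.3, 16.5 and 33.8 FPKM. The part of these marker differences, and of the difference in dose, in the ratios below was not tested. Of the markers of prostate luminal cells, KLK3 and KLK2 were listed at 0 in every line, so the labelled tissue of origin does not show in these secretory markers. STAT3, a gene PC3 cells are known to lack, was at 0.0181 FPKM or below in all 4 lines.

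Interferons are secreted proteins that warn cells of viral infection. Type I and type III interferons bind receptors whose kinases JAK1 and TYK2 phosphorylate STAT proteins, among them STAT2, which joins IRF9 in a complex that binds a DNA element called the interferon-stimulated response element. The genes so induced include sensors of viral RNA, further transcription factors, and effectors that degrade RNA, block translation or stop virus particles from entering or leaving the cell. Tumour cells can express many of these genes without added interferon.

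The core of that element was looked for in the promoters, since it is the sequence the members are known to share. No sequence was used to choose them, but they were named as interferon-stimulated genes. A share above that of all genes was therefore built into the list, and the shares are descriptions. RefSeq promoters (250 bases before to 50 after each start site, GRCh38.p14) were found for 32 of the 40 genes, and the letters GAAANNGAAA occurred on either strand in 23 of them (71.9%). Among all 27305 genes with a promoter in that table, 1195 held them (4.38%). A second motif, TTCNNNGAA, the gamma-activated site bound by pairs of STAT proteins, was present in 10 of the 32 (31.2%) and in 9.38% of all genes. This pattern reads the same on both strands, and its last 3 letters can overlap the core. The following windows of 24 bases, with the 10-base core in capitals, show the match nearest the start site in genes from both ends of the ratio of the OVOL2 line to the OVOL1 line, and in a pair of genes that share a promoter region. They were placed on GRCh37 (hg19), the build of the expression tables, by exact match near the gene. IFI27, RSAD2, IFITM1 and SAMD9 are 4 of the 7 genes with the highest ratios. Of the other 3, OAS2 had no promoter matched, the nearest match of MX1 lies after the start site and that of IFI44L was found at 2 places, and the repeats are separated by CC in MX1 and AA in IFI44L. ISG20, PARP14 and IFIT5 have the lowest ratios among the genes with a match.
IFI27: tttcctgGAAAATGAAAcctatct
RSAD2: cacatgtGAAACTGAAAgttgaaa
IFITM1: cttctgaGAAACTGAAAcgacagg
SAMD9: gagaaatGAAACTGAAAccaaacc
ISG20: caaactaGAAACTGAAAcagggtc
PARP14: aggaaacGAAAGCGAAAgagtcaa
IFIT5: gcgctcaGAAACTGAAActtaaga
PARP9 and DTX3L: gggaagcGAAACTGAAActttgcg

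The IFI27 window lies at chr14:94576980-94577003 on the plus strand, with its core 95 bases before the start site, and the RSAD2 window at chr2:7017756-7017779 on the minus strand, 145 bases before it. Those of IFITM1 (chr11:314027-314050, plus strand) and SAMD9 (chr7:92747412-92747435, minus strand) have cores that begin 6 and 136 bases before the start. The core of IFITM1 therefore runs across the start site. Among the genes with low ratios, the ISG20 window is at chr15:89182171-89182194 on the plus strand, the PARP14 window at chr3:122399650-122399673 on the plus strand and the IFIT5 window at chr10:91174314-91174337 on the minus strand. PARP9 and DTX3L are transcribed away from each other from 1 shared region, and the same window, at chr3:122283172-122283195 on the plus strand, serves both promoters. The windows of RSAD2, IFITM1, SAMD9, ISG20, IFIT5 and the PARP9 and DTX3L pair have the same core, with C and T between the repeats, so genes from both ends share it. The core was present in 13 of 18 members with a promoter that were at least 2-fold higher in the OVOL2 line than in the OVOL1 line (72.2%) and in 10 of 13 members of at least 1 FPKM that were not (76.9%), a split by the ratio the list was chosen on, for which no test was made.

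Of the 40 genes, 37 had a mean level over the 4 lines of at least 1 FPKM and were counted. MX2, TRIM22 and XAF1 did not reach it. Against the OVOL1 line, 20 of the 37 were at least 2-fold higher in the OVOL2 line, where 1.6% of the 12106 genes of at least 1 FPKM were, and 0 were at least 2-fold lower, where 1.15% of all genes were. The median log2 ratio of the 37 was 1.07, a 2.09-fold difference, and 35 of them lay above 0, while the median of all genes was -0.04. The ratios ran from log2 -0.18 for IFITM2 to 2.27 for IFI27. IFI27, RSAD2 and BST2 were below 1 FPKM in PC3-EMT14 and the OVOL1 line and reached the limit for counting through the other lines. With 1 FPKM added to both values their log2 ratios were 1.26, 1.07 and 0.93, and MX1 (1.63) and OAS2 (1.61) were then above IFI27. The summed level of the 37 genes was 906, 857, 1269 and 1335 FPKM, and their geometric mean was 8.47, 8.05, 15.8 and 16.4 FPKM. By this sum and mean PC3-EMT14 and the OVOL1 line were lower than the OVOL2 line and PC3-Epi, in a list chosen on ratios between these lines. Single genes did not all follow this order. PC3-Epi had the highest level for 20 of the 37 genes and the lowest for 6. The OVOL2 line had the highest for 14 and the lowest for 0.

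**Figure D1:**
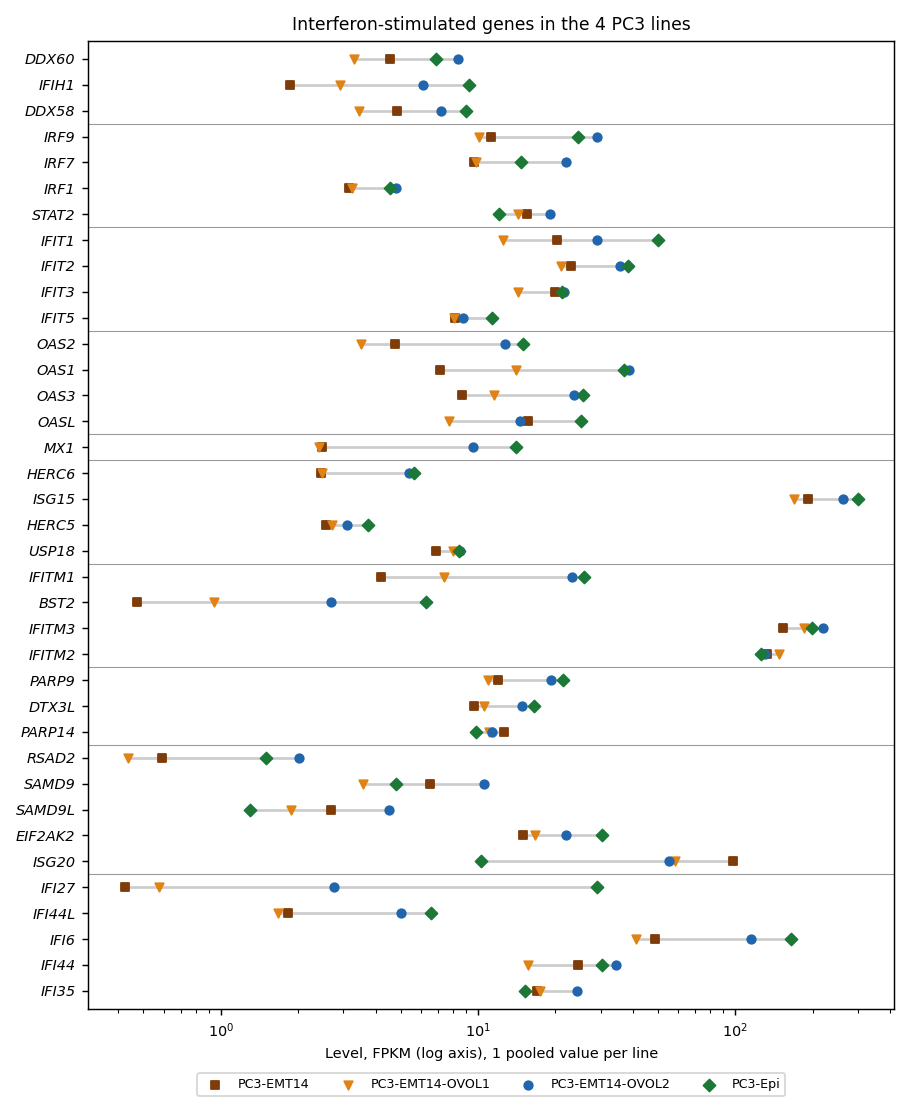
Pooled level of 37 interferon-stimulated genes in FPKM on a log axis, grouped by role, with 1 marker per line (squares for PC3-EMT14, triangles for the OVOL1 line, circles for the OVOL2 line and diamonds for PC3-Epi) and no replicate spread. The circles and diamonds lie to the right of the squares and triangles for most genes, and ISG20 is among the genes that run the other way, with 97.8 FPKM in the mesenchymal parent and 10.3 FPKM in the epithelial line.

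**Figure D2:**
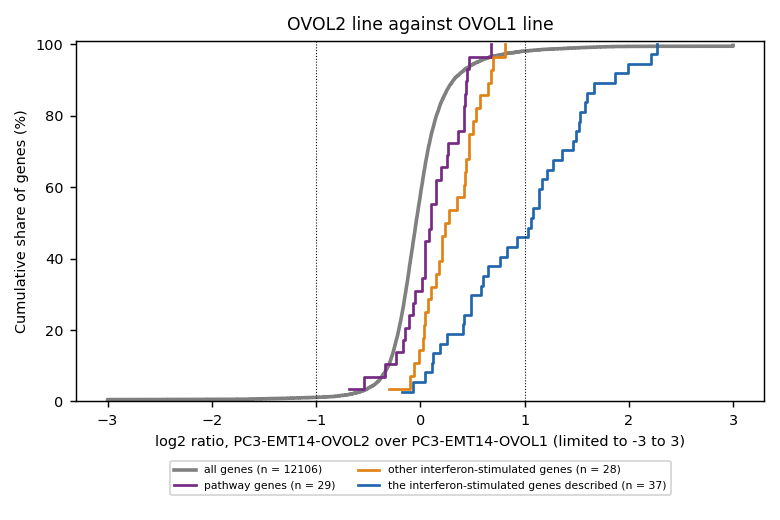
Cumulative share of genes (percent) against the log2 ratio of PC3-EMT14-OVOL2 to PC3-EMT14-OVOL1, for all 12106 genes of at least 1 FPKM, 29 genes of the interferon pathway, 28 other interferon-stimulated genes and the 37 genes described, with dotted lines at 2-fold. The curve of the 37 genes lies to the right of the others, with 20 genes past 2-fold, in a set chosen on this ratio.

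The sensors of viral RNA in the cytoplasm were all at least 2-fold higher in the OVOL2 line than in the OVOL1 line (3 of 3). On this ratio, which the list was chosen on, 1.6% of all genes were. With 1 FPKM added, the log2 ratios of DDX58 (0.88) and IFIH1 (0.87) were short of 2-fold and that of DDX60 (1.13) was not. IFIH1, the MDA5 protein that recognises long double-stranded RNA, stood at 1.87, 2.92, 6.13 and 9.22 FPKM, a log2 ratio of 1.08 between the OVOL lines. DDX58, which encodes RIG-I, the sensor of RNA ends with a triphosphate, stood at 4.86, 3.44, 7.17 and 9.01 FPKM (log2 ratio 1.07), and the related helicase DDX60 at 4.53, 3.30, 8.39 and 6.88 FPKM (log2 ratio 1.36). DDX58 and DDX60 were lowest in the OVOL1 line, whereas IFIH1 was lowest in PC3-EMT14.

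Among the 4 transcription factors, 2 passed 2-fold between the OVOL lines, where 1.6% of all genes were at least 2-fold higher. IRF9, the DNA-binding partner of STAT2, stood at 11.2, 10.1, 28.9 and 24.6 FPKM (log2 ratio 1.52). IRF7, which drives the interferon genes themselves, stood at 9.69, 9.87, 22.02 and 14.7 FPKM (log2 ratio 1.17). Both were highest in the OVOL2 line, above PC3-Epi. STAT2 ran from 12.1 FPKM in PC3-Epi to 19.0 FPKM in the OVOL2 line, with 15.5 FPKM in PC3-EMT14 and 14.3 FPKM in the OVOL1 line, and so IRF9 differed more than its partner STAT2. IRF1, a factor that acts more broadly in interferon responses, stood at 3.17, 3.22, 4.79 and 4.54 FPKM (log2 ratio 0.58).

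The IFIT proteins bind viral RNA and hinder its translation, and their 4 genes lie side by side on chromosome 10. IFIT1, at chr10:91152322-91163744, stood at 20.3, 12.6, 29.0 and 50.3 FPKM and was the member of this family past 2-fold (log2 ratio 1.21). Of all genes, 1.6% were at least 2-fold higher. IFIT2 stood at 22.9, 21.0, 35.5 and 38.5 FPKM (log2 ratio 0.76), and IFIT3 at 19.9, 14.2, 21.5 and 21.2 FPKM (log2 ratio 0.60). IFIT5, at chr10:91174325-91180759, was nearly level at 8.11, 8.08, 8.76 and 11.3 FPKM (log2 ratio 0.12). Adjacent genes of 1 cluster therefore had ratios from 0.12 to 1.21.

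The OAS enzymes make oligoadenylates that activate the RNA-degrading enzyme RNase L, and OAS1, OAS3 and OAS2 form a cluster on chromosome 12. OAS1, at chr12:113344739-113357712, stood at 7.10, 14.1, 38.6 and 36.99 FPKM, and OAS3 at 8.64, 11.6, 23.6 and 25.6 FPKM. OAS2, at chr12:113416274-113449528, stood at 4.77, 3.52, 12.7 and 15.0 FPKM. The log2 ratios between the OVOL lines were 1.46, 1.04 and 1.86. All 3 thus passed 2-fold, where 1.6% of all genes were at least 2-fold higher. OAS3 was just inside the limit, and its log2 ratio was 0.98 with 1 FPKM added. For OAS1 and OAS3 the OVOL1 line lay between PC3-EMT14 and the OVOL2 line, while for OAS2 it lay below PC3-EMT14. OASL, an OAS-like protein without the enzyme activity that lies apart from the cluster, stood at 15.7, 7.71, 14.6 and 25.2 FPKM, and with a log2 ratio of 0.93 it was just outside. The OVOL1 line was the low one for this gene, and the OVOL2 line was close to PC3-EMT14.

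MX1, a dynamin-like GTPase that traps viral nucleocapsids, stood at 2.48, 2.41, 9.54 and 14.1 FPKM, a log2 ratio of 1.99 between the OVOL lines. PC3-EMT14 and the OVOL1 line could hardly be separated for this gene. Its neighbour MX2 ran in the same order at 0.608, 0.385, 1.13 and 1.35 FPKM, under the limit for counting.

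The ISG15 system attaches a small ubiquitin-like protein to other proteins. ISG15 itself stood at 193, 169, 264 and 300 FPKM in PC3-EMT14, the OVOL1 line, the OVOL2 line and PC3-Epi (log2 ratio between the OVOL lines 0.65). It had the highest level of the 40 genes in each line but the OVOL1 line, where IFITM3 was higher at 186 FPKM. HERC6, a ubiquitin ligase-like protein, stood at 2.45, 2.47, 5.41 and 5.63 FPKM and was the 1 of 4 past 2-fold (log2 ratio 1.14). By comparison, 1.6% of all genes were at least 2-fold higher. With 1 FPKM added the log2 ratio of HERC6 was 0.89, short of 2-fold. Its neighbour HERC5, the main ligase for ISG15 in human cells, stood at 2.56, 2.72, 3.09 and 3.73 FPKM (log2 ratio 0.19), and USP18, which removes ISG15 and dampens the interferon receptor, at 6.89, 7.96, 8.54 and 8.40 FPKM (log2 ratio 0.11). Adjacent genes again differed, with log2 ratios of 1.14 for HERC6 and 0.19 for HERC5.

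Among the proteins that act at membranes, close relatives differed in the ratio between the OVOL lines. IFITM1, which blocks viral entry at the cell surface, stood at 4.18, 7.36, 23.2 and 25.8 FPKM (log2 ratio 1.66). IFITM3 stood at 154, 186, 220 and 199 FPKM (log2 ratio 0.25), and IFITM2 at 133, 149, 131 and 126 FPKM (log2 ratio -0.18). The abundant IFITM2 and IFITM3 varied little and the scarce IFITM1 varied several-fold. These genes resemble each other closely in sequence, so the split of reads among them is uncertain. BST2, or tetherin, which holds budding virus at the cell surface, stood at 0.472, 0.938, 2.69 and 6.26 FPKM (log2 ratio 1.53), higher in each line than in the one before it.

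PARP9 and DTX3L, partners in a complex that modifies histones and viral proteins, stood at 12.0, 10.9, 19.3 and 21.4 FPKM and at 9.65, 10.6, 14.8 and 16.5 FPKM (log2 ratios 0.83 and 0.49). The tables give both the same region, chr3:122246760-122294049, and reads from overlapping parts of the pair may not be told apart. PARP14, an ADP-ribosyltransferase further along the same chromosome, stood at 12.7, 11.0, 11.3 and 9.80 FPKM (log2 ratio 0.05). It was one of the genes highest in PC3-EMT14, the other being ISG20.

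Among the remaining effectors, RSAD2, or viperin, an enzyme that makes a chain-terminating nucleotide, stood at 0.591, 0.436, 2.01 and 1.499 FPKM (log2 ratio 2.21). SAMD9 and SAMD9L, neighbouring restriction factors of poxviruses, stood at 6.48, 3.56, 10.6 and 4.80 FPKM and at 2.68, 1.87, 4.50 and 1.30 FPKM (log2 ratios 1.58 and 1.28). With 1 FPKM added the log2 ratio of SAMD9 was 1.35 and that of SAMD9L was 0.95, short of 2-fold. Unlike most members, this pair was high in the OVOL2 line and below PC3-EMT14 in PC3-Epi. EIF2AK2, the kinase PKR that halts translation, stood at 14.9, 16.6, 22.02 and 30.2 FPKM (log2 ratio 0.41). ISG20, an exonuclease for single-stranded RNA, ran from high to low at 97.8, 58.5, 55.3 and 10.3 FPKM, with hardly any difference between the OVOL lines (log2 ratio -0.07) and a 9.71-fold lower level in PC3-Epi than in PC3-EMT14. TRIM22, a ubiquitin ligase with antiviral activity, was at 0.109 FPKM or below in every line.

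The IFI genes, several of them small proteins of mitochondria or of poorly known function, had 4 of 5 counted members past 2-fold. Between the OVOL lines, 1.6% of all genes were at least 2-fold higher. IFI27 stood at 0.424, 0.574, 2.76 and 29.0 FPKM, with a log2 ratio of 2.27 between the OVOL lines that rested on a level below 1 FPKM in the OVOL1 line and was 1.26 with 1 FPKM added. IFI6 stood at 48.7, 41.2, 115 and 165 FPKM (log2 ratio 1.49). The neighbours IFI44L and IFI44 stood at 1.83, 1.67, 5.03 and 6.55 FPKM and at 24.4, 15.7, 34.4 and 30.3 FPKM (log2 ratios 1.60 and 1.14). In each of these 4 genes the OVOL2 line exceeded both PC3-EMT14 and the OVOL1 line. IFI35 stood at 16.9, 17.5, 24.3 and 15.3 FPKM (log2 ratio 0.48), and XAF1, a promoter of cell death, was at 0.0412 FPKM or below throughout.

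Set against PC3-EMT14, the OVOL1 line was close to its parent. Of the 37 genes, 2 were at least 2-fold higher, OAS1 and BST2, each with a log2 ratio of 1.00 just past the limit, where 2.54% of all genes were. With 0.1 FPKM added the count was 0, and with 1 FPKM added their log2 ratios were 0.91 and 0.40. OASL was the 1 gene at least 2-fold lower (log2 ratio -1.01, and -0.93 with 1 FPKM added), where 1.13% of all genes were. The median log2 ratio was -0.10, and 17 genes lay above 0 and 20 below. IFITM1 and IFIH1, with log2 ratios of 0.83 and 0.66, came next among the higher genes, and SAMD9 and ISG20, with -0.85 and -0.73, among the lower.

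In the OVOL2 line 14 of the 37 genes were at least 2-fold higher than in PC3-EMT14, where 4.04% of all genes were, and 0 were at least 2-fold lower, where 2.4% of all genes were. The median log2 ratio was 0.65. IFI27 (log2 ratio 2.72), BST2 (2.53), IFITM1 (2.49) and OAS1 (2.46) had the highest ratios, but with 1 FPKM added those of IFI27 and BST2, both below 1 FPKM in PC3-EMT14, were 1.41 and 1.33, below OAS1 (2.31) and IFITM1 (2.24). In PC3-Epi 14 genes were likewise at least 2-fold higher than in PC3-EMT14, where 6.44% of all genes were, and the lower genes were ISG20 (log2 ratio -3.28) and SAMD9L (-1.07), where 7.46% of all genes were. The median there was 0.72, with IFI27 at a log2 ratio of 6.07, a 67.2-fold difference, and BST2 at 3.70, which with 1 FPKM added were 4.39 and 2.29. The comparisons with PC3-EMT14 share its samples, so a level of PC3-EMT14 that was off would move all of them together, and the ratio of the OVOL lines adds nothing independent to the ratios of each to their parent.

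**Figure D3:**
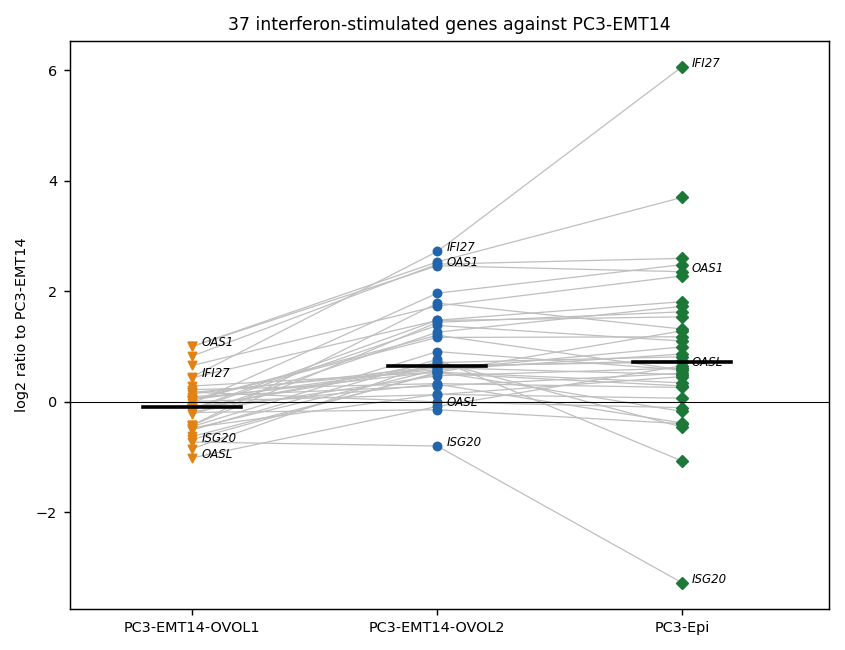
Log2 ratio to PC3-EMT14 of 37 interferon-stimulated genes in the OVOL1 line, the OVOL2 line and PC3-Epi, with 1 point per gene, grey lines joining the same gene and black bars at the medians (-0.10, 0.65 and 0.72). OVOL1 values lie around 0, and those of the other lines lie mostly above it, apart from ISG20 and a few others.

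The genes that start and carry the interferon signal were described from a separate list of 52 names, of which 51 were found and 29 reached 1 FPKM. Between the OVOL lines 0 of the 29 were 2-fold higher and 0 were 2-fold lower, where 1.6% and 1.15% of all genes were, so the count is near that of all genes, and the median log2 ratio was 0.10. Of the 16 interferon genes, 0 reached 1 FPKM and 7 were listed at 0 in all lines. The interferon genes above 0.1 FPKM in any line were IFNE, an epithelial type I interferon, at 0.513, 0.142, 0.126 and 0.136 FPKM, and IL29, a type III interferon, at 0.00867, 0.0128, 0.0703 and 0.189 FPKM. At such levels a ratio means little, and secreted protein was not measured.

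The interferon receptors were expressed in every line. IFNAR1 stood at 16.2, 15.6, 13.8 and 12.5 FPKM, and its partner IFNAR2 at 13.2, 13.2, 9.02 and 8.501 FPKM (log2 ratio between the OVOL lines -0.54). For both chains of the type I receptor PC3-Epi had the lowest level, and the part of receptor levels in the members' ratios was not tested. For the gamma receptor, IFNGR1 stood at 16.8, 14.6, 16.1 and 10.8 FPKM and IFNGR2 at 48.5, 56.5, 54.5 and 28.6 FPKM. The type III receptor chain IL28RA stood at 2.05, 2.26, 2.88 and 3.16 FPKM and IL10RB at 15.2, 15.6, 16.5 and 11.7 FPKM. In all, 0 of the 6 receptor genes passed 2-fold in any of the 4 comparisons, where between 1.13% and 7.46% of all genes did in each direction, so that few of 6 genes would be past it in any case.

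Of the kinase genes, JAK1 stood at 20.8, 20.8, 22.3 and 17.4 FPKM and JAK2 at 3.01, 4.37, 4.98 and 3.71 FPKM. TYK2 stood at 38.3, 33.4, 34.2 and 16.6 FPKM, and at a log2 ratio of -1.24 in PC3-Epi it was the kinase gene past 2-fold in a comparison. Of the 6 genes that restrain the pathway, 0 passed 2-fold between the OVOL lines, again near the share of all genes, and SOCS1, a feedback inhibitor, was lower in PC3-Epi than in PC3-EMT14 (log2 ratio -1.70).

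A further list of 38 interferon-stimulated genes outside the 40, all found and 28 of them at 1 FPKM or more, had 0 genes past 2-fold in either direction between the OVOL lines, where 1.6% of all genes were higher and 1.15% lower, a count near that of all genes. Their median log2 ratio was 0.25, with 24 above 0 and 4 below, and the highest was that of CMPK2, the neighbour of RSAD2 that supplies its nucleotide substrate, at 2.23, 1.94, 3.41 and 2.01 FPKM (log2 ratio 0.82). Against PC3-EMT14 in PC3-Epi, PLSCR1 (log2 ratio 1.46) and TRIM14 (1.07) passed 2-fold. This list is made of genes outside the 40, which were chosen on this ratio, so a lower median was built into it and nothing is read from the difference. A list of genes known mainly as targets of interferon gamma, also outside the 40, had 2 of 9 counted genes at least 2-fold higher in the OVOL2 line, where 1.6% of all genes were, and a median log2 ratio of 0.64.

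The non-member genes beside the members on the chromosomes did not, by their medians, share the members' ratios. For each gene up to 10 of the nearest non-member genes of at least 1 FPKM were taken on each side, with fewer for genes near a chromosome end, such as IFITM1 with 16 in all. For the 20 genes past 2-fold between the OVOL lines, the medians of their neighbours ran from -0.10 to 0.09. At most 3 neighbours of any gene were themselves 2-fold higher, those of IFI6 with 20 neighbours, where 1.6% of all genes were. Members were left out of the neighbours, so adjacent members past 2-fold, such as SAMD9 and SAMD9L, do not show here. Over all 37 genes the median of the neighbour medians was -0.04, the same as that of all genes.

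**Figure D4:**
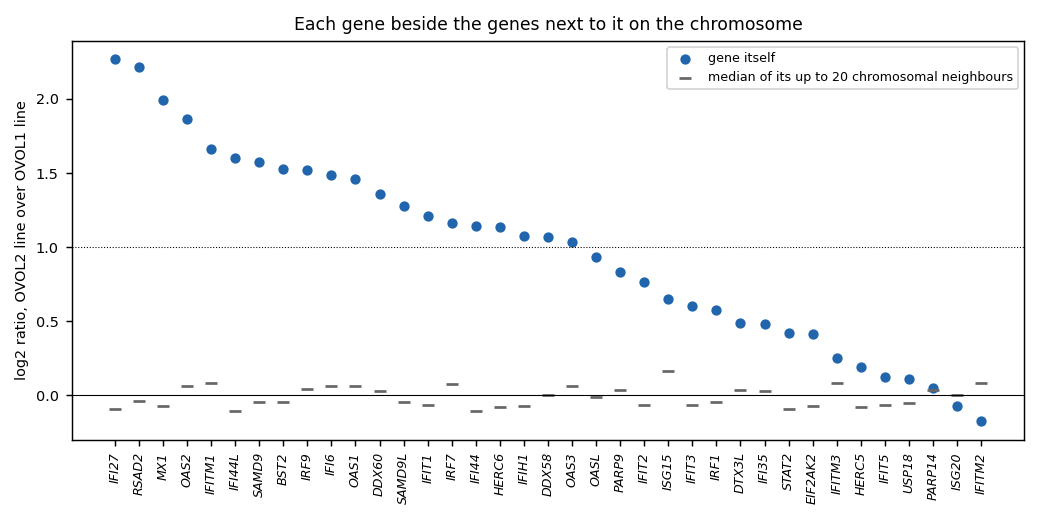
Log2 ratio of PC3-EMT14-OVOL2 to PC3-EMT14-OVOL1 for each of 37 interferon-stimulated genes (points, in descending order) and the median of its chromosomal neighbours (dashes), with the dotted line at 2-fold. Points fall from 2.27 for IFI27 to -0.18 for IFITM2 while the dashes stay between -0.10 and 0.16.

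At the level of isoforms, the tables list 65 entries for the 40 genes, and 8 genes had at least 2 isoforms of 1 FPKM or more. In 8 of 8 every such isoform was higher in the OVOL2 line than in the OVOL1 line. In 6 of them the log2 ratios of the isoforms lay within 1 of each other. The genes were chosen on this ratio, on which 35 of the 37 counted lay above 0, as did 5077 of all 12106 genes. The isoforms of OAS2 had log2 ratios of 1.02, 2.03 and 2.02. The least abundant isoform of OAS1 stood at 0.270, 1.42, 5.75 and 2.49 FPKM and made up 3.81%, 10.1%, 14.9% and 6.73% of the gene. The main isoform of PARP9 stood at 5.61, 4.59, 11.4 and 12.8 FPKM (log2 ratio 1.32), whereas another was level at 3.57, 3.27, 3.49 and 2.78 FPKM (log2 ratio 0.10). The remaining PARP9 isoform of at least 1 FPKM stood at 1.87, 2.31, 3.40 and 3.56 FPKM (log2 ratio 0.57), so 1 of its 3 isoforms was past 2-fold. Isoform levels are estimates that share reads, and they carry more uncertainty than gene levels.

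**Figure D5:**
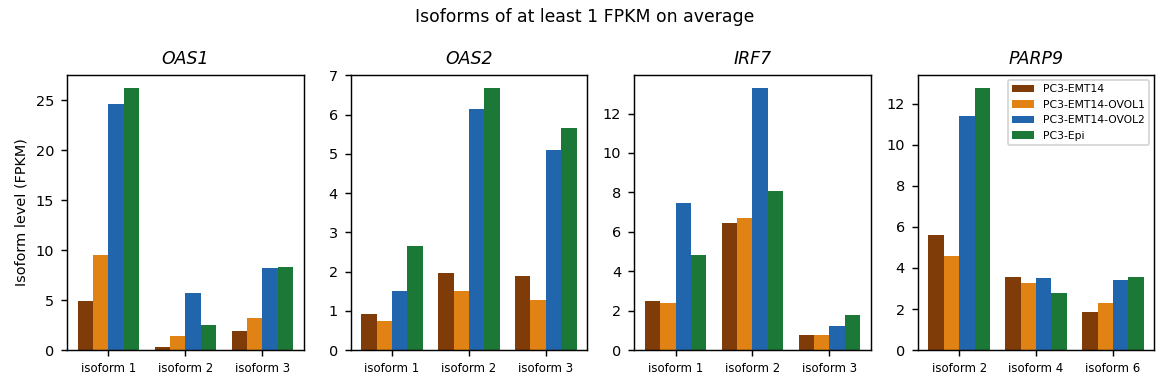
Pooled level in FPKM, from 0, of the isoforms of at least 1 FPKM on average of OAS1, OAS2, IRF7 and PARP9, with 1 bar per line and no error bars since values are pooled. Isoforms of OAS1 and OAS2 are higher in the OVOL2 line and PC3-Epi than in the other lines, and isoform 4 of PARP9 lies between 2.78 and 3.57 FPKM in every line.

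Since PC3-EMT14 came from a culture with macrophages, which express interferon-stimulated genes, markers of macrophages were read in the same tables. The part of macrophages in the levels of the members was not tested. Of 14 markers, 13 were below 1 FPKM in every line. The exception was CD68, a lysosomal protein that other cells also make, at 53.2, 51.0, 57.8 and 13.2 FPKM, lowest in PC3-Epi. The summed level of the markers other than CD68 was 0.448, 0.419, 0.661 and 0.556 FPKM. The highest of them in each line was at 0.0974, 0.175, 0.181 and 0.200 FPKM.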

How the data were processed

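Paired-end RNA-seq reads of 10 samples were aligned by the authors to hg19 and quantified with Cufflinks and Cuffdiff, named in the submitters' notes beside FastQC. The deposited tables give FPKM per gene or isoform, 1 value per group that pools its samples, in 4 comparisons. They also hold the authors' log2 fold changes, test statistics, p-values and q-values, which were not used. Because values are pooled, samples could not be compared, the depth is unknown and no test was made.

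Ratios were recomputed from each table's own pair of values with no pseudocount. A line's level is the mean over the tables that hold it: tables differed by a nearly constant factor of at most 3.34% for the genes described, which is a scaling difference and not a replicate error. Genes with a mean of at least 1 FPKM over the 4 lines were counted, and a ratio of 2-fold in either direction was the limit. The code was tested on simulated data.

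Members and lists were chosen with earlier results of these data known. All 40 members are named, with levels for each past 2-fold between the OVOL lines and for at least 1 of each role. Of the pathway list, interferons above 0.1 FPKM, receptors, kinases and STATs are named, except for an item that is not reported here, and of other lists the genes past 2-fold between the OVOL lines, at most 8 a list. CMPK2, PLSCR1, TRIM14, SOCS1, TLR4, TMEM173, IFI16, IFI30, GBP1, GBP2, ESRP1 and FN1 were named after their values were seen. Deposited starts were raised by 1, since 6602 of 18023 genes matched by name then fell on a GENCODE transcript start, against 904 as deposited. RefSeq promoters were not matched for IRF7, IFIT2, OAS2, OASL, MX2, USP18, IFITM2 and TRIM22. Python 3.11.15, numpy 2.4.6, pandas 2.3.3 and matplotlib 3.10.9 were used.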

Additional observations from a re-analysis of the deposited data

How the results depend on the processing

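No paired analysis was possible because each value pools the samples of a group, and for the same reason no replicate could be left out. Without replicates, a count is called changed here when it moved by over 1.5 times, and a median when it moved by over 0.1 on the log2 scale. Between the OVOL lines, the count of 20 higher genes became 2 with a 4-fold limit, and the median log2 ratio of 1.07 became 0.88 with 1 FPKM added to both values. For the OVOL1 line against PC3-EMT14, the 2 higher genes became 1 when a mean of at least 5 FPKM was asked for, 0 with 0.1 or 1 FPKM added, 4 with a 1.5-fold limit and 0 with a 4-fold limit. The 1 lower gene there became 2 with no limit on FPKM, 0 with 1 FPKM added, 5 with a 1.5-fold limit and 0 with a 4-fold limit. For the OVOL2 line against PC3-EMT14, 14 higher genes became 4 with a 4-fold limit, and 0 lower genes became 1 with a 1.5-fold limit. For PC3-Epi, 14 higher genes became 6 with a 4-fold limit, and 2 lower genes became 1 with a mean of at least 5 FPKM, with 1 FPKM added or with a 4-fold limit. Adding 1 FPKM took 6 of 20, 3 of 3, 2 of 14 and 3 of 16 genes inside 2-fold in the 4 comparisons, in the order given, and changed the sign of 0 ratios. Of the alternatives to these counts and medians, 74 left the value within those bounds and 17 did not. They include centring on the median of all genes and taking the ratio of the OVOL lines through PC3-EMT14, which differed from the direct ratio by at most 0.000178 on the log2 scale.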

Other observations

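Genes known mainly as targets of interferon gamma formed a separate list of 14, of which 9 reached 1 FPKM, and 2 of those were at least 2-fold higher in the OVOL2 line than in the OVOL1 line, where 1.6% of all genes were. IDO1, the tryptophan-degrading enzyme that restrains T cells, stood at 1.35, 3.997, 11.4 and 1.98 FPKM in PC3-EMT14, the OVOL1 line, the OVOL2 line and PC3-Epi (log2 ratio between the OVOL lines 1.51). SECTM1, a transmembrane and secreted protein that binds CD7 on T cells, stood at 19.9, 19.8, 41.6 and 12.4 FPKM (log2 ratio 1.07). Both were highest in the OVOL2 line and in PC3-Epi stood nearer to the PC3-EMT14 level than to that of the OVOL2 line. IFI27 and MX1 differed from them, with their highest level in PC3-Epi. SAMD9, SAMD9L, STAT2 and IFI35 were, like IDO1 and SECTM1, highest in the OVOL2 line, and lay below PC3-EMT14 in PC3-Epi. IFI30, a lysosomal thiol reductase of antigen processing, stood at 34.3, 55.8, 86.6 and 67.2 FPKM. GBP1 and GBP2, interferon-inducible GTPases, had log2 ratios of opposite sign in PC3-Epi against PC3-EMT14, at 1.85 and -1.15.

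Among the genes that sense nucleic acids and induce interferon, 13 of 18 found reached 1 FPKM, and 0 differed 2-fold between the OVOL lines, where 1.6% of all genes were higher and 1.15% lower, a count near that of all genes. In PC3-Epi, 3 of the 13 were at least 2-fold lower than in PC3-EMT14, where 7.46% of all genes were. TLR4, the receptor for bacterial lipopolysaccharide, stood at 2.55, 1.71, 1.06 and 0.247 FPKM, and TMEM173, which encodes the DNA-signalling adaptor STING, at 20.7, 13.7, 10.8 and 7.996 FPKM. IFI16, a DNA sensor, stood at 5.76, 3.44, 4.665 and 2.58 FPKM. TLR4 and TMEM173 were lower in each line than in the one before it, the opposite order to that of BST2.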
